A study of Homo sapiens with 6 samples.

Results

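The transcription factors that direct erythroid gene expression were described by their nascent transcription and their steady-state RNA in K562 cells. The 10 members, GATA1, GATA2, TAL1, LMO2, LDB1, KLF1, NFE2, GFI1B, ZFPM1 and MYB, were chosen by name and found by joining the counted transcript identifiers to GENCODE gene symbols. Each member had 1 counted transcription unit (TU), so that they made up 10 of 37110 genes with a TU. K562 is a human chronic myelogenous leukemia line with erythroid features, and the cells were untreated and grown in RPMI-1640 medium with serum and antibiotics. The series holds 4 RNA-seq libraries of total RNA depleted of rRNA, and 2 PRO-seq libraries, which map the RNA still held by engaged RNA polymerase. According to the methods, the cells of both assays came from 1 flask, so that SDs and p-values measure the spread between libraries and not between cultures. RNA-seq replicates 1 and 3 had nearly the same share of records outside TUs (68.48% and 68.56%), as did 2 and 4 (66.46% each). The titles give only replicate numbers, so that the 4 RNA-seq libraries may not be independent. The study was designed to compare the assays: if transcription and decay balance, the RNA-seq/PRO-seq ratio of a TU is proportional to its RNA half-life. Such a ratio has no unit of time, and it also changes with the speed of elongation, which was not measured here. The paper rested its main analyses on earlier published K562 libraries, with poly-A+ RNA-seq, and not on this series. It reports that half-life estimates from the earlier libraries varied less and lay closer to those of other studies.

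GATA factors bind GATA motifs at erythroid genes, where GATA1 forms a complex with the helix-loop-helix protein TAL1, the bridging protein LMO2 and the dimerizing cofactor LDB1. GATA2 is used early, in stem and progenitor cells, and gives way to GATA1 as erythroid cells mature. KLF1 and NFE2 act with this complex at globin and other red cell genes, GFI1B represses, ZFPM1 (FOG-1) is the cofactor of GATA1, and MYB keeps progenitors dividing.

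Counts on TUs ranged from 5732780 to 9002746 in an RNA-seq library and were 6993816 and 7245632 in the PRO-seq libraries. Levels are given in TPM, which scales counts by the library and by TU length (exons for RNA-seq, the span without 500 bp at each end for PRO-seq), and are thus comparable between genes within an assay. Of 10 erythroid markers, 7 had a counted TU, and all 7 exceeded 10 TPM in RNA-seq. The fetal globin HBG2 reached 6273 TPM, embryonic HBE1 3096 TPM and the transferrin receptor TFRC 632 TPM, although the near-identical HBG1 and HBG2 can share reads. These are RNA-seq levels only. In PRO-seq, HBG2 held 29 counts over a counted length of 251416 bp and HBE1 0 counts over 236308 bp, so that neither could be tested for a ratio. HBG1, counted over 589 bp, held 63 PRO-seq counts, a mean of 205 TPM. The low counts of HBG2 and HBE1 over such long TUs are thus not read as absent transcription, and their cause was not tested. Summed erythroid marker levels were 11442 to 12350 TPM per RNA-seq library. The megakaryocyte markers summed to 25.7 to 28.5 TPM, nearly all from ITGA2B, with PF4 at 0 counts. Myeloid markers summed to 9.20 to 10.9 TPM, nearly all from SPI1 (also counted among the partners described further on), and lymphoid markers to 70.7 to 75.7 TPM, nearly all from PTPRC. Since libraries were bulk, fewer cells that express a gene and less RNA per cell cannot be told apart.

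**Figure D1:**
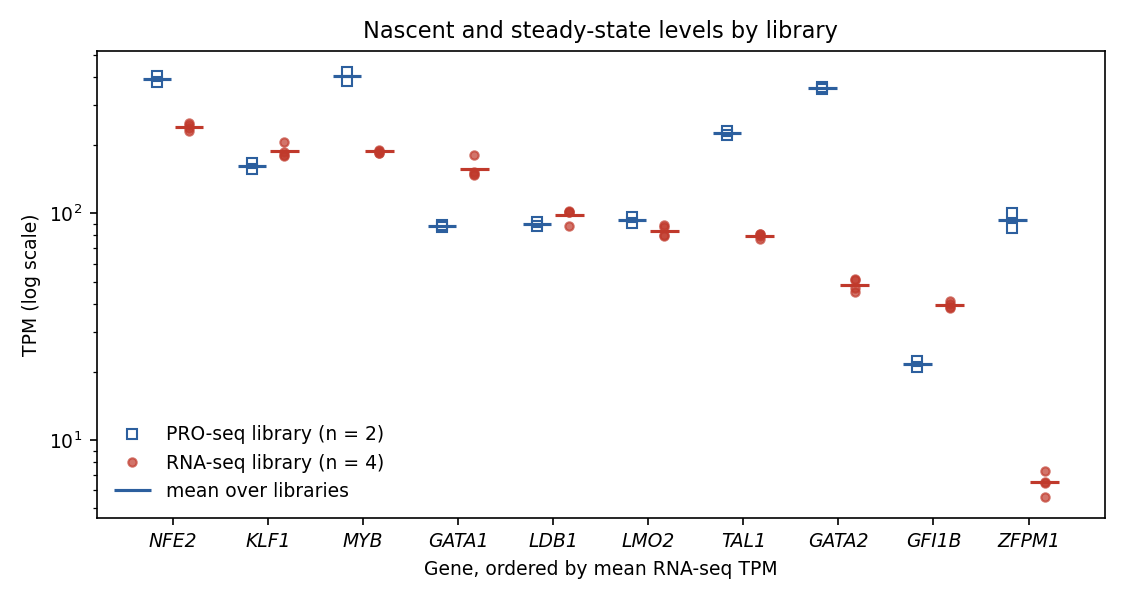
TPM of each member (log axis) in each of the 2 PRO-seq libraries (squares) and 4 RNA-seq libraries (circles), with short lines at the mean; genes are ordered by mean RNA-seq TPM. RNA-seq means run from 240.5 TPM for NFE2 to 6.51 TPM for ZFPM1, whereas PRO-seq means run from 401 TPM for MYB to 21.6 TPM for GFI1B.

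All 10 members passed the thresholds of the test (above 10 TPM for PRO-seq and above 1 TPM for RNA-seq), and most were strongly transcribed. In PRO-seq, 9 of 10 members lay above the 85th percentile of 14965 mRNAs with counts in both assays, with GFI1B at the 51.0th percentile. In RNA-seq this held for 7 of 10, with GATA2, GFI1B and ZFPM1 below it. Mean levels spanned 36.9-fold in RNA-seq and 18.5-fold in PRO-seq, and without ZFPM1 the RNA-seq span was 6.08-fold.

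Relative half-life was tested for all 10053 TUs above the thresholds with edgeR's quasi-likelihood test, as the log2 RNA-seq/PRO-seq ratio less that of the median mRNA, with Benjamini-Hochberg adjustment over all of them. Of the members, GATA1, GFI1B, KLF1, LDB1 and LMO2 had ratios above the median mRNA, GATA2, ZFPM1, TAL1 and MYB had ratios below it, and NFE2 did not pass. Among all TUs tested, 40.0% were above and 50.4% below, and among the 8733 mRNAs tested 45.4% and 44.9%. A call by itself is thus common, and the size of a ratio is the more informative value. The median log2 ratio of the members, all mRNAs, was 0.21, where the median mRNA sets the origin of the scale. For all TUs tested, which include TUs other than mRNAs, it was −0.24. The 0.21 rests on the counted transcripts. With the shorter PRO-seq lengths tried below, 2 members were above and 7 below the median mRNA. For scale, the middle of the mRNA distribution (25th to 75th percentile) ran from −1.06 to 1.08 and its 5th to 95th percentile from −2.75 to 2.77.

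GATA1 and GATA2 differed in opposite directions in the assays. GATA1 (ENST00000376670, chrX:48786590-48794311, plus strand, GRCh38, as are all coordinates given for members) was at 147.5, 151.9, 179.7 and 149.1 TPM in RNA-seq replicates 1 to 4, and at 88.6 and 86.9 TPM in PRO-seq replicates 1 and 2. Replicate 3 was the highest of the RNA-seq libraries. The log2 ratio of GATA1 was 1.47 ± 0.096 (SE), a 2.77-fold higher relative half-life than the median mRNA (edgeR, adjusted p = 9.62e-15), and lay at the 81.9th percentile of mRNAs tested.

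GATA2 (ENST00000341105, chr3:128479427-128493201, minus strand) was at 50.9, 44.9, 51.5 and 46.8 TPM in RNA-seq and at 352 and 361 TPM in PRO-seq. Its log2 ratio was −2.25 ± 0.058 (SE; edgeR, adjusted p = 6.38e-25), at the 8.23rd percentile. Thus mean GATA2 transcription exceeded that of GATA1 4.07-fold while mean GATA1 RNA exceeded that of GATA2 3.24-fold, and in neither assay did the libraries of the genes overlap. The difference in log2 ratio was 3.71, and it ran from 3.53 to 3.86 over the 8 combinations of libraries, which share libraries and are not independent. As an alternative, the PRO-seq length of each member was taken from its shortest CCDS (consensus coding) transcript. Counts, RNA-seq lengths and the lengths of all other TUs were kept. This could thus lower a member's ratio but not raise it appreciably. With the shortest CCDS transcript the log2 ratio of GATA2 was −3.16, its PRO-seq mean 7.67-fold that of GATA1, and the difference in log2 ratio 4.63. An antisense lncRNA, GATA2-AS1, covered 28.8% of the GATA2 span and held 1270 PRO-seq and 500 RNA-seq counts. Whether reads were counted by strand is stated in no source used here, so that those of such opposite-strand pairs may not have been kept apart, and the part of GATA2-AS1 in the GATA2 values was not tested.

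TAL1, LMO2 and LDB1, which form the core of the complex with GATA1, lay within 77.2 to 101.9 TPM in every RNA-seq library. TAL1 (ENST00000371884, chr1:47216290-47231715, minus strand) was at 80.6, 80.7, 77.2 and 79.4 TPM in RNA-seq, and at 222 and 231 TPM in PRO-seq. LMO2 (ENST00000257818, chr11:33858576-33892076, minus strand) was at 87.4, 80.6, 88.5 and 79.0 TPM, and at 95.8 and 90.1 TPM. LDB1 (ENST00000425280, chr10:102107560-102120285, minus strand) was at 101.5, 101.6, 101.9 and 88.0 TPM, and at 87.7 and 91.9 TPM. In RNA-seq the ranges of LDB1 and LMO2 overlapped, as did those of LMO2 and TAL1, but LDB1 stood above TAL1 in each library. In PRO-seq LMO2 and LDB1 overlapped and TAL1 stood above both, with the TU lengths of the counted transcripts.

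TAL1 had a log2 ratio of −0.87 ± 0.051 (SE; edgeR, adjusted p = 5.55e-16). That of LMO2 was 0.49 ± 0.062 (adjusted p = 2.50e-08) and that of LDB1 0.77 ± 0.079 (adjusted p = 2.63e-10, both edgeR). On the log2 scale TAL1 differed from LMO2 by −1.36 and from LDB1 by −1.64, and over the combinations of libraries the difference from LMO2 ran from −1.56 to −1.21. These values rest on the counted transcript. With the PRO-seq length of the shortest CCDS transcript of each gene and the same counts, the log2 ratio was −1.08 for TAL1, −1.18 for LMO2 and −0.11 for LDB1 (edgeR, adjusted p = 0.214 for LDB1). TAL1 then differed from LMO2 by 0.097, so that this contrast was lost, and from LDB1 by −0.98. At those lengths the PRO-seq mean of LMO2, 295 TPM, lay above that of TAL1, 262 TPM, and that of LDB1 was 165 TPM. An overlapping antisense lncRNA covered 32.1% of TAL1 but held 8 RNA-seq and 9 PRO-seq counts.

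KLF1 and NFE2, activators of globin genes, were among the most abundant members. KLF1 (ENST00000264834, chr19:12884422-12887201, minus strand) was at 185.6, 181.1, 205.6 and 178.3 TPM in RNA-seq and at 156 and 166 TPM in PRO-seq. It is the shortest member, so that its PRO-seq level rests on 150 reads over 1780 bp, with an exact 95% Poisson interval from 15.4% below to 17.3% above, which covers counting error only. The KLF1 log2 ratio was 0.85 ± 0.119 (SE; edgeR, adjusted p = 1.35e-07). It was 1.16 when 500 bp in all, in place of 1000 bp, was taken off the PRO-seq length of each TU.

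NFE2 (ENST00000435572, chr12:54292111-54301015, minus strand) was at 250.3, 236.7, 243.7 and 231.3 TPM in RNA-seq, all above every library of every other member, and at 379 and 402 TPM in PRO-seq. Its log2 ratio of −0.060 ± 0.053 (SE) could not be told from that of the median mRNA (edgeR, adjusted p = 0.283), and 1 of 8 combinations of libraries gave a value above 0. An antisense lncRNA (ENSG00000258344) covered 100% of the NFE2 span and held 1470 PRO-seq but 2 RNA-seq counts, beside 1611 PRO-seq counts of NFE2. The counted NFE2 transcript also began far upstream: with the length of the shortest CCDS transcript the log2 ratio was −1.67 (edgeR, adjusted p = 1.69e-22).

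The repressor GFI1B and the cofactor ZFPM1 lay at opposite ends of the order of ratios. GFI1B (ENST00000339463, chr9:132945551-132991687, plus strand) was at 38.3, 40.0, 41.1 and 38.7 TPM in RNA-seq, and at 22.4 and 20.9 TPM in PRO-seq, the lowest transcription of the members. Its log2 ratio was 1.504 ± 0.080 (SE; edgeR, adjusted p = 5.50e-17), and its range over library combinations overlapped that of GATA1. This value depends most on the TU: an inner start shortens the span for PRO-seq from 45137 to 11977 bp, a 3.77-fold change in length, and the log2 ratio then became −0.41.

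ZFPM1 (ENST00000319555, chr16:88453280-88537031, plus strand) was at 7.34, 6.50, 5.64 and 6.57 TPM in RNA-seq and at 86.0 and 99.8 TPM in PRO-seq. Its ratio was the lowest of the members at −3.18 ± 0.073 (SE; edgeR, adjusted p = 3.79e-26), 9.07-fold under the median mRNA and at the 3.31st percentile. With the shortest CCDS transcripts GATA2 came within 0.019 of it on the log2 scale. In PRO-seq the libraries of ZFPM1 overlapped those of GATA1, LMO2 and LDB1, of which GATA1 alone still overlapped at the CCDS lengths. In RNA-seq the mean of GATA1 was 24.1-fold and that of LMO2 12.9-fold higher than that of ZFPM1. The difference in log2 ratio between GATA1 and its cofactor was 4.65, and from 4.29 to 5.19 over library combinations.

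MYB (ENST00000341911, chr6:135181308-135219172, plus strand) was at 184.1, 190.8, 184.8 and 188.8 TPM in RNA-seq, and at 419 and 384 TPM in PRO-seq, where it overlapped NFE2 at the top of the order. At the CCDS lengths the PRO-seq mean of NFE2 was 1193 TPM and that of MYB 417 TPM. The log2 ratio of MYB was −0.46 ± 0.040 (SE; edgeR, adjusted p = 7.62e-12). Its RNA-seq mean was 1.00 times that of KLF1 and the ranges overlapped, yet its PRO-seq mean was 2.49-fold higher. When TUs with at least 1 summed count in each assay were admitted, the median mRNA shifted by 0.63 and the ratio of MYB was 0.16.

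**Figure D2:**
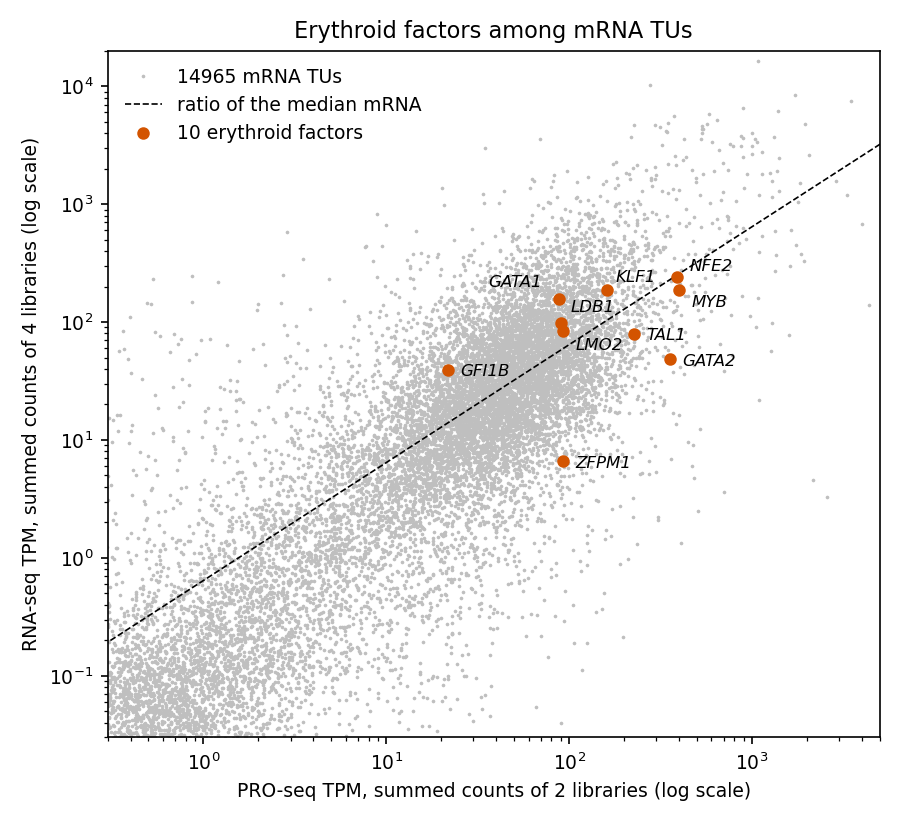
RNA-seq against PRO-seq TPM (log axes, counts summed over libraries) of 14965 mRNA TUs (grey, those within the axes) and the 10 members (orange), with a dashed line at the ratio of the median mRNA. ZFPM1 and GATA2 lie far below the line, GATA1 and GFI1B above it, and NFE2 on it.

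Sequences near the start of transcription were compared, since the GATA motif is the site of 2 members. Promoters came from RefSeq (GRCh38.p14, 250 bases before to 50 after a start) and were found for 8 members with 11 starts. AGATAA or TGATAA, on either strand, stood in 3 of 11 member starts, beside 16.3% of 35116 promoters. For TAL1 it stood at a start at chr1:47232335, upstream of the start of the counted TU. The promoter at the counted start, chr1:47231715, held 0 matches of that motif. CTG placed 7 or 8 bases before that motif, the arrangement known for GATA1 and TAL1 binding together, stood in 2 of 11 starts, those of KLF1 and the inner start of GFI1B, beside 0.803% of promoters. The 150 bases before each of the 3 starts are shown because they hold the motif, which is in capitals with the CTG where present (in reverse complement for KLF1 and TAL1):
KLF1, chr19:12887202-12887351, minus strand: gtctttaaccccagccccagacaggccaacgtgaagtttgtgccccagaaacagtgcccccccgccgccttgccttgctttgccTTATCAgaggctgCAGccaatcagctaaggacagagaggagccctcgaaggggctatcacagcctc
GFI1B, chr9:132978544-132978693, plus strand: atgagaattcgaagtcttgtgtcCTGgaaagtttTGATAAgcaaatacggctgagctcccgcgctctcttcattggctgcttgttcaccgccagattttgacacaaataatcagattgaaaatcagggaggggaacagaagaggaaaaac
TAL1, chr1:47232336-47232485, minus strand: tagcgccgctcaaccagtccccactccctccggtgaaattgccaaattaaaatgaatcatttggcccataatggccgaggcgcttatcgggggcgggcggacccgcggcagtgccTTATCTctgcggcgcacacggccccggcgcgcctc
These are matches of letters, and binding was not measured.

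The length of the 3′UTR, which holds many signals for RNA decay, moved against the ratio among the members. The members without an ATTTA pentamer, the core of AU-rich elements, were GATA1, LDB1, KLF1, NFE2 and GFI1B, whose 3′UTRs were 147 to 637 bp long and whose log2 ratios ran from −0.060 to 1.504. Those with ATTTA were LMO2, MYB, TAL1, GATA2 and ZFPM1, with 3′UTRs of 780 to 3430 bp and ratios from −3.18 to 0.49, so that the ranges of ratios overlapped through LMO2 and NFE2. These ratios rest on the counted transcripts. With the shortest CCDS transcripts they ran from −1.67 (NFE2) to 1.47 (GATA1) without ATTTA, and from −3.18 (ZFPM1) to −0.52 (MYB) with it. NFE2 then lay below MYB, TAL1 and LMO2. Over all 8142 mRNAs with a 3′UTR, 71.3% held ATTTA. The longer nonamer TTATTTATT stood in 8.71% of them and in 0 members. Of the 13 sites in members, 6 are shown as examples, all from members with ratios below the median mRNA. They are 2 neighbouring sites of MYB and sites of GATA2, TAL1 and ZFPM1, as GENCODE v44 transcripts give them, with ATTTA in capitals:
MYB, position 491 of the 3′UTR: ttgtaaatgctcATTTAtggttaatgaca
MYB, position 518: cattgaaggtacATTTAttgtaccaaacc
GATA2, position 333: taggcaaaaataATTTAttttgctcttgt
GATA2, position 1505: attatgtacaacATTTAtatattgtctgt
TAL1, position 442: acttctgtccatATTTAtaggtacccaat
ZFPM1, position 2012: cactgtgtgtacATTTAaaagtaaactgt
MYB held 6 such sites in all, or 5.03 per kb, at the 91.4th percentile of mRNAs, and LMO2, with a ratio above the median mRNA, held 2.

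As a description, Spearman's rho between the log2 ratio and 3′UTR length was −0.76 over the 10 members and −0.25 over 8733 mRNAs. For exon length, which divides the RNA-seq counts, it was −0.75 and −0.33, and for the number of ATTTA −0.68 and −0.13. Per kb of 3′UTR, ATTTA gave −0.63 over members but 0.018 over mRNAs. These were among the strongest of 14 features computed, the points share libraries and lengths, and no test was made. All use the ratios of the counted transcripts, and rho was not computed with the shortest CCDS transcripts. ZFPM1 also had the most GC-rich exons of the members, at 68.9% (99.4th percentile of mRNAs), and MYB the least, at 43.9%.

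The factors' paralogues and partners gave a wider frame. Of 17 paralogues, 16 had a counted TU and 7 could be tested, of which 3 were above the median mRNA and 4 below, with a median log2 ratio of −0.18. MYBL2, a cell cycle paralogue of MYB, was highest at 1.69 ± 0.057 (SE), followed by NFE2L1 and NFE2L3. GFI1, the paralogue of GFI1B, was lowest at −2.82 ± 0.268 on 67 RNA-seq counts, followed by LMO4 and LYL1. LYL1, which can stand in for TAL1, was at 207 ± 13.1 TPM (SD, n = 4) in RNA-seq, above TAL1 in every library, and at a mean of 512 TPM in PRO-seq. GATA3, LMO1 and LMO3 had 0 RNA-seq counts, where 3 counts over the 4 libraries would be 0.0715, 0.212 and 0.140 TPM.

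Of 30 partners, 29 had a counted TU and 24 could be tested, of which 9 were above the median mRNA, 13 below and 2 (TCF4 and TCF12) not called, with a median log2 ratio of −0.25. The shares resemble those of all TUs tested. The corepressor subunits HDAC2, HDAC1 and KDM1A, which work with GFI1B and TAL1, had the highest ratios at 3.59, 3.06 and 2.75. HDAC2 was at 150 TPM from 1028 RNA-seq counts, and HDAC1 at 395 TPM from 11357. Since TPM divides by exon length, the exons of the counted HDAC2 transcript were the shorter, which raises its ratio. Other TU lengths were not tried for partners or paralogues. CBFA2T3 (ETO2), a corepressor in the TAL1 complex, was lowest at −4.22 ± 0.060 (SE; edgeR, adjusted p = 2.29e-31), with 6.59 TPM in RNA-seq and 192 TPM in PRO-seq. It was followed by the acetyltransferases CREBBP at −2.83 and EP300 at −2.19. BCL11A, which silences fetal globin, had 0 RNA-seq counts (3 counts would be 0.0651 TPM).

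The genes closest to 8 of the members over the 6 libraries, by Euclidean distance of log2(TPM + 1) are given by name. PPP1R8 was closest to GATA1 (distance 0.199), MEPCE to TAL1 (0.146), FAF1 to LMO2 (0.103) and SGTA to LDB1 (0.174). PRKDC was closest to KLF1 (0.136), WDR11 to GFI1B (0.104), HOXB3 to ZFPM1 (0.231) and C6orf62 to MYB (0.327). With 1 condition, such closeness describes levels in the assays and not shared variation.

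Most of the processing tried moved the members' ratios little, and the length given to a TU in PRO-seq moved it most. GATA1 stayed above and GATA2 and ZFPM1 below the median mRNA, each past the threshold, under all 18 alternatives. GFI1B stayed above except with the shortest CCDS transcript, and TAL1 stayed below but was not past a test against a 2-fold difference.

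**Figure D3:**
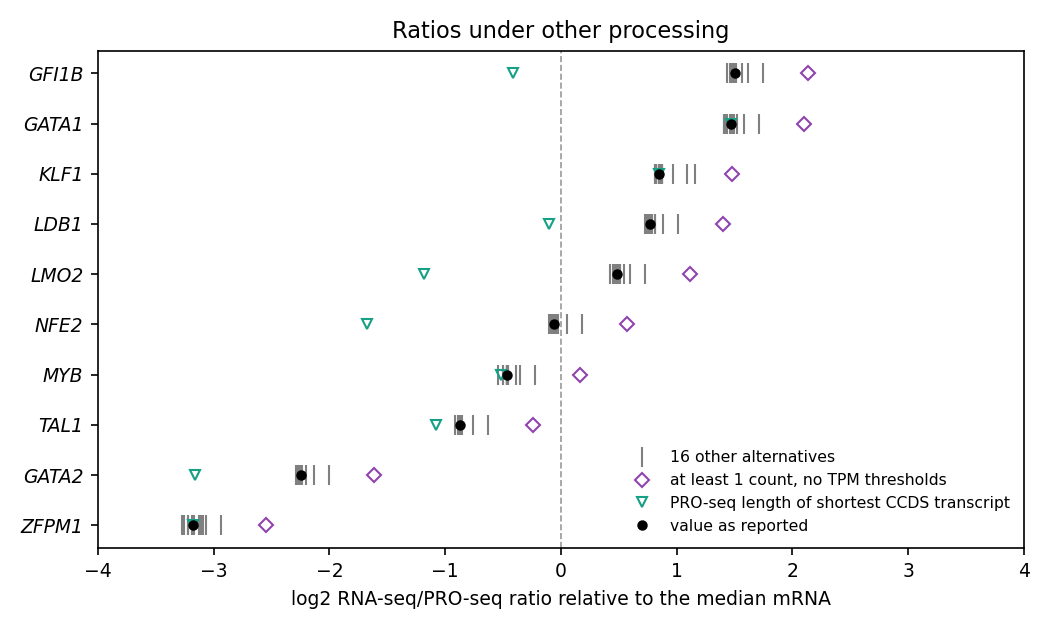
Log2 RNA-seq/PRO-seq ratio of each member under the processing reported (black) and under 18 alternatives, of which the admission of TUs with at least 1 count and the use of the shortest CCDS transcript are marked. The CCDS length moves GFI1B from 1.504 to −0.41 and LMO2 from 0.49 to −1.18, whereas GATA1, KLF1 and ZFPM1, each with 1 length in both, keep theirs.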

How the data were processed

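For each library the authors deposited raw counts per transcript. Their methods name Cutadapt for trimming, HISAT2 for alignment (GRCh38) and HTSeq with GENCODE genes for counting. No source used here gives a tool version or says whether counting was by strand. Rows that name no TU (66.5% to 68.6% of RNA-seq records, 86.5% and 88.6% of PRO-seq records) were left out. Of 42371 transcripts, 37339 (88.1%) matched GENCODE v44 lifted to GRCh37, from which lengths were taken. The labels mention 500 bp left out for PRO-seq without saying at how many ends, and the methods name both, so 1000 bp was subtracted. Subtracting 500 bp changed no call of a member, but moved the ratio of KLF1, the shortest.

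The main test was edgeR 4.0.16 (R 4.3.3) with TMM and length offsets over all 6 libraries, on 10053 TUs that exceeded 10 TPM by PRO-seq and 1 TPM by RNA-seq. DESeq2 1.42.0 was an alternative. On simulated counts for these TUs, 95% of 200 TUs changed 2-fold were recovered, with 12 false calls. In that simulation all other TUs had the same rate in both assays, whereas 90.4% of TUs were called in the real data. It thus checks that the test runs, and gives no rate of false calls for these data. All members were named, with the 3 highest and 3 lowest tested genes of the other lists. The members and lists were chosen with earlier results of these data known. Levels have no test, and order was judged by whether the ranges over libraries overlapped. The genes closest in level to GATA2 and NFE2 are not reported here.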

Additional observations from a re-analysis of the deposited data

Results flagged for a closer look

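Of the 10 members, 2 had an RNA-seq library that stood apart from the other 3 by Dixon's ratio of gap to range, which chance alone exceeds in about 1 in 20 groups. GATA1 was at 179.7 TPM in RNA-seq replicate 3 (ratio 0.863). LDB1 was at 88.0 TPM in RNA-seq replicate 4 (ratio 0.969). Leaving out any 1 library kept the log2 RNA-seq/PRO-seq ratio of GATA1 between 1.41 and 1.495 and that of LDB1 between 0.75 and 0.81. The cause was not tested.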

How the results depend on the processing

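Of 180 values of the members under the alternatives, 167 kept their direction and side of the threshold and 7 changed sign. Counted by the threshold alone, 6 no longer passed and 3, all of NFE2, newly passed. Tested against a 2-fold difference, 2140 TUs were above and 2998 below the median mRNA, with 2 and 2 members, 1 and 2 paralogues and 5 and 8 partners. TAL1, LMO2, LDB1, KLF1 and MYB then no longer passed. With at least 1 summed count and no TPM thresholds, 6579 TUs were above and 8009 below, with 5 paralogues and 14 partners above, and NFE2 was at 0.57 and MYB at 0.16, since the median mRNA shifted by 0.63. With at least 10 summed counts NFE2 was at 0.054, not past the threshold. Relative to the median of all TUs tested, which shifts values by 0.24, NFE2 was at 0.18. With the PRO-seq length of the shortest CCDS transcript, chosen after seeing the data, 2 members were above and 7 below, with GATA2 at −3.16, TAL1 at −1.08, LMO2 at −1.18, LDB1 at −0.11, GFI1B at −0.41 and NFE2 at −1.67. Only the lengths of members were changed in that setting, and none became longer. The counted transcript was the MANE Select (reference) one for 7 members, but not for TAL1, LDB1 and GFI1B. Without 1 library, 3871 to 4007 TUs were above and 4897 to 5053 below, with 5 and 4 members, 3 and 3 to 4 paralogues, and 8 to 10 and 13 partners. The samples share only replicate numbers: the differences between replicates 1 and 2 of the assays had r = −0.052 over 8723 mRNAs. With a replicate block, 3922 TUs were above and 4966 below, with 5 and 4 members, and no call of a member changed. With RNA-seq replicates 1 and 3 summed, and 2 and 4 summed, 3974 TUs were above and 5027 below, with 5 and 4 members. The adjusted p of GATA2 was then 2.07e-17 and that of MYB 5.68e-08 (edgeR). Depth was lowest for the PRO-seq counts of KLF1 (150 summed over libraries) and GATA1 (308).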

Other observations

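The NF-E2 motif (TGAGTCA or TGACTCA, either strand) stood in 0 of 11 member starts, beside 4.95% of 35116 promoters. TATAAA stood in 0 of 11, beside 11.5%, and GGGCGG in 7 of 11, beside 45.0%. The ZFPM1 promoter had a GC content of 83%, beside a median of 58.7% for all promoters.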
